A study of Mus musculus with 10 samples.

Results

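Zfp36, Zfp36l1 and Zfp36l2 encode the ZFP36 family of RNA-binding proteins, also known as tristetraprolin (TTP), BRF1 and BRF2. The 3 genes were measured by 6 of the 22690 probe sets on the array, 1 for Zfp36, 2 for Zfp36l1 and 3 for Zfp36l2. The members were all probe sets whose platform annotation named 1 of these genes and no other. The cells were 32Dcl3, a mouse myeloblast line that depends on IL-3 for growth, and their total RNA was hybridised to Affymetrix mouse genome arrays. In both of 2 independent experiments, cells deprived of the cytokine by washing met actinomycin D (10 µg/ml), an inhibitor of transcription. Parts of that culture then received a high dose (1 ng/ml) or a low dose (10 pg/ml) of IL-3. RNA was taken at 0 h, before either dose, and at 2 h and 4 h in each dose, so that each of the 5 groups held 2 arrays, 1 per experiment. The labels differ on whether the 0 h cells had already met actinomycin D. All groups came from the same line of cells, and all groups after 0 h carried the transcription block. Their signal was therefore read as what was left of RNA already made. It also depends on the scaling of the arrays, and whether the block was complete was not tested. Within an experiment the groups came from a single culture.

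Proteins of this family hold a pair of CCCH zinc fingers that bind AU-rich elements (AREs) in messenger RNA. Once bound, they recruit the CCR4-NOT deadenylase, the poly(A) tail is shortened, and the transcript is decapped and degraded. The family is known for limiting cytokine transcripts such as Tnf, and its own messages also carry AREs and turn over quickly. Phosphorylation by kinases such as MK2, the product of Mapkapk2, creates binding sites for 14-3-3 proteins and restrains the destabilizing activity. In blood formation, ZFP36L2 is required for haematopoietic stem and progenitor cells, and tristetraprolin restrains inflammation driven by myeloid cells.

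The labelled cell type was checked against its markers. Of 11 markers of myeloblasts and granulocyte precursors, 8 had a mean intensity of at least 50, among them the granule genes Mpo, Prtn3 and Ctsg and the IL-3 receptor subunit Il3ra. The other markers, Elane, Kit and Cd34, had mean intensities of 19.6, 7.98 and 5.83. All 5 lymphoid markers on the array lay under 50. A mean of at least 50 was reached by 3 of 6 macrophage, 3 of 6 mast cell and 2 of 4 erythroid and megakaryocyte markers. The highest means in these lists were 2969 for Adgre1, 1243 for Cpa3 and 1842 for Itga2b, while C1qa (5.33), Ms4a2 (16.9) and Hba-a1 (2.67) were among those under 50. The summed signal of these lists overlapped between the doses. It ran from 3116 to 3460 at the high and 3248 to 3759 at the low dose for macrophage markers, from 2218 to 3233 and 2436 to 3168 for erythroid and megakaryocyte markers, and from 1114 to 2371 and 1146 to 2698 for mast cell markers. In such bulk RNA, fewer cells of a kind and less RNA per cell cannot be told apart.

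Of the 6 probe sets, 4 had a mean intensity over the 10 arrays of at least 50 and were tested. These were 1450644_at and 1422528_a_at for Zfp36l1, 1437626_at for Zfp36l2 and 1452519_a_at for Zfp36. Zfp36 passed this filter through its 0 h arrays, since its mean over the 8 later arrays was 42.7. For 1422528_a_at the 0 h and high-dose arrays carried it past the filter, since its mean over the low-dose arrays was 41.2. The remaining pair, 1451034_at and 1439054_at, was also annotated to Zfp36l2 and had means of 27.4 and 10.3. Differences were tested with limma on log2(intensity + 16) across all 11856 probe sets that passed the filter, with the experiment as a block. Adjusted p-values are Benjamini-Hochberg values over these 11856, and the threshold was 0.05. All log2 values are differences on that scale, which understates changes of dim probe sets. The p-values rest on the spread left after the shift between the 2 experiments is removed, joined with a prior from all tested probe sets. They cover no experiments beyond these 2. The mean over 2 h and 4 h takes the arrays of both times as independent, although those of an experiment share a culture.

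**Figure D1:**
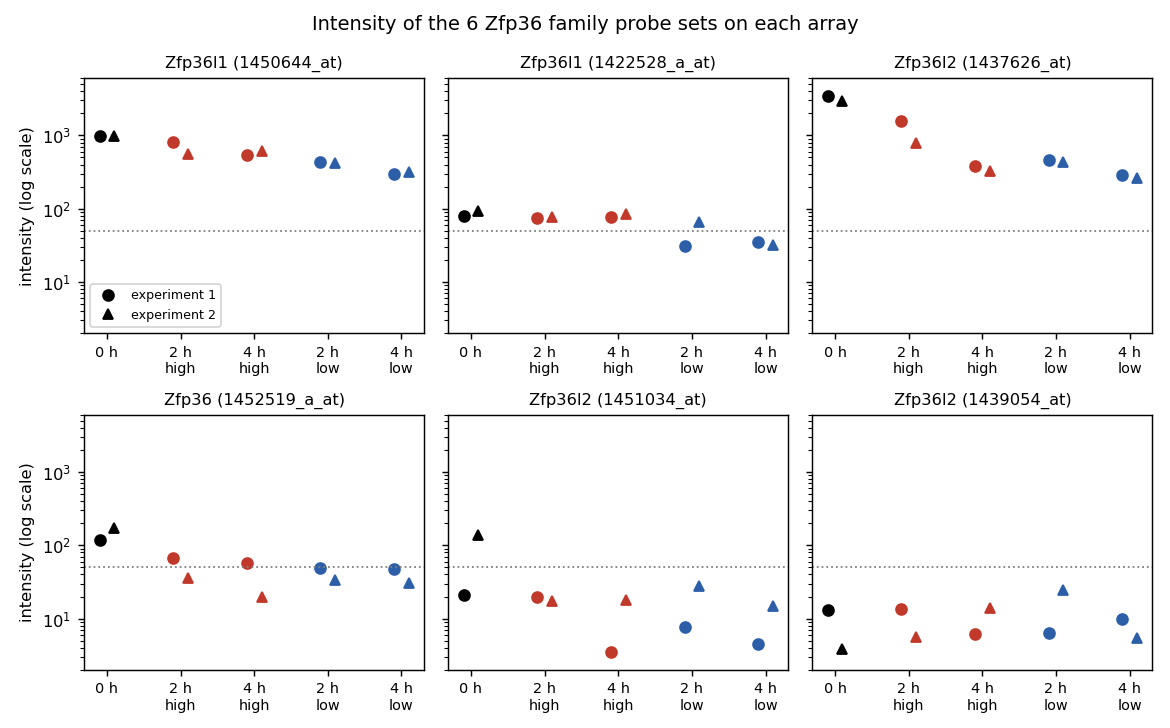
Intensity on a log scale (vertical axis) of the 6 Zfp36 family probe sets in the 5 groups (horizontal axis), at 0 h (black), at the high dose (red) and at the low dose (blue), with a circle for experiment 1 and a triangle for experiment 2. The dotted line marks an intensity of 50; Zfp36l1 by 1450644_at and Zfp36l2 by 1437626_at lie above it on all 10 arrays, and 1439054_at lies below it on all 10.

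Zfp36l1 (BRF1) kept more of its 0 h signal at the high than at the low dose by both of its probe sets. At 4 h, 1450644_at kept 59.5% ± 6.29 of its 0 h signal at the high dose and 31.4% ± 2.33 at the low dose (SD, n = 2 experiments). By 1422528_a_at the corresponding shares were 93.4% ± 5.74 and 39.8% ± 7.47. That probe set was dim, and its call between the doses, given below, held in 7 of 18 tested alternatives. Zfp36l2 (BRF2) decayed to 11.03% ± 0.0489 at the high and 8.57% ± 0.401 at the low dose at 4 h, and its difference between the doses was 1.29 on the log2 scale at 2 h and 0.35 at 4 h. Zfp36 (TTP) showed no difference between the doses beyond the spread of the arrays.

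The intensity of 1450644_at at 0 h was 996 in experiment 1 and 971 in experiment 2. With the high dose it was 809 and 562 at 2 h, and 548 and 621 at 4 h. At the low dose it was 440 and 421 at 2 h, and 296 and 321 at 4 h. Every high-dose array lay above every low-dose array, and the experiments were closest to each other at 0 h and at the low dose. High over low was 1.84-fold and 1.34-fold at 2 h and 1.85-fold and 1.94-fold at 4 h in experiments 1 and 2. Averaged over 2 h and 4 h, the doses differed by a log2 of 0.76 (SE 0.11; limma, adjusted p = 0.0023), and the high dose was above in 4 of 4 pairs of arrays matched by experiment and time.

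The other Zfp36l1 probe set also differed between the doses. 1422528_a_at had intensities of 78.3 and 93.4 at 0 h in experiments 1 and 2. It read 74.1 and 76.4 at 2 h and 76.3 and 83.4 at 4 h at the high dose, against 30.9 and 66.3 at 2 h and 35.3 and 32.2 at 4 h at the low dose. Again no high-dose array fell to the level of a low-dose array, and the low-dose array of experiment 2 at 2 h came nearest. Averaged over 2 h and 4 h the doses differed by 0.75 (SE 0.15; limma, adjusted p = 0.031), in the same direction in 4 of 4 pairs. The filter favours such a difference, since this probe set passed it through the 0 h and high-dose arrays. Its mean was 77.5 over the high-dose and 41.2 over the low-dose arrays. With no filter on signal the call was lost (adjusted p = 0.17 from limma), so it is weaker support. Both probe sets read transcripts of 1 gene in the same RNA, so the second is not independent support for the first.

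Zfp36l2 by 1437626_at had intensities of 3455 and 2940 at 0 h. At the high dose these fell to 1588 and 783 at 2 h and to 382 and 323 at 4 h. At the low dose they were already at 459 and 435 at 2 h, and at 286 and 260 at 4 h. At each time the high-dose arrays lay above the low-dose arrays, but the gap was wide at 2 h and narrow at 4 h. High over low was 3.46-fold and 1.80-fold at 2 h and 1.34-fold and 1.24-fold at 4 h. Averaged over 2 h and 4 h it was higher at the high dose by 0.82 (SE 0.12; limma, adjusted p = 0.0042), in 4 of 4 pairs.

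Zfp36 lay close to the filter, with 4 of its 10 arrays at an intensity of 50 or more. It read 118 and 173 at 0 h. With the high dose it read 67.5 and 35.8 at 2 h and 57.9 and 19.7 at 4 h, and at the low dose 48.4 and 33.6 at 2 h and 47.5 and 30.9 at 4 h. The doses overlapped, and after 0 h each array of experiment 2 was lower than its counterpart in experiment 1. Its mean log2 difference between doses was 0.07 (SE 0.19; limma, adjusted p = 0.97), higher at the high dose in 3 of 4 pairs. Its 95% confidence interval ran from -0.34 to 0.48, so that a moderate difference in either direction was not detectable with these arrays.

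So 3 of the 4 tested probe sets, standing for 2 of the 3 genes, were higher at the high dose at the threshold, where 0.692% of all tested probe sets were higher and 0.0169% were lower. The study had singled out Zfp36l1 and Zfp36l2 from a ranking of these same arrays, so that this count is no independent evidence of direction. The study also followed both transcripts on Northern blots, which these arrays do not cover. There it compared 1 ng/ml IL-3 with medium lacking it, and reported slower decay with IL-3. Ordered by p, 1450644_at stood at 17, 1437626_at at 22, 1422528_a_at at 66 and the Zfp36 probe set at 9033 of 11856. None of the 3 calls held without the experiment as a block or without the variance trend, in which the prior spread follows signal, and each was lost without the 4 h low-dose array from experiment 1 (adjusted p = 0.074 for 1450644_at, 0.15 for 1437626_at and 0.15 for 1422528_a_at; over the alternatives these ranged from 1.5e-04, 1.6e-05 and 0.0067 to 1). With no filter on signal the calls of 1437626_at (0.052) and 1422528_a_at (0.17) were also lost, and that of 1422528_a_at held in 7 of 18 tested alternatives. It was lost too without either 4 h high-dose array, the 2 h high-dose array from experiment 1, the 2 h low-dose array from experiment 1 or the 4 h low-dose array from experiment 2.

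**Figure D2:**
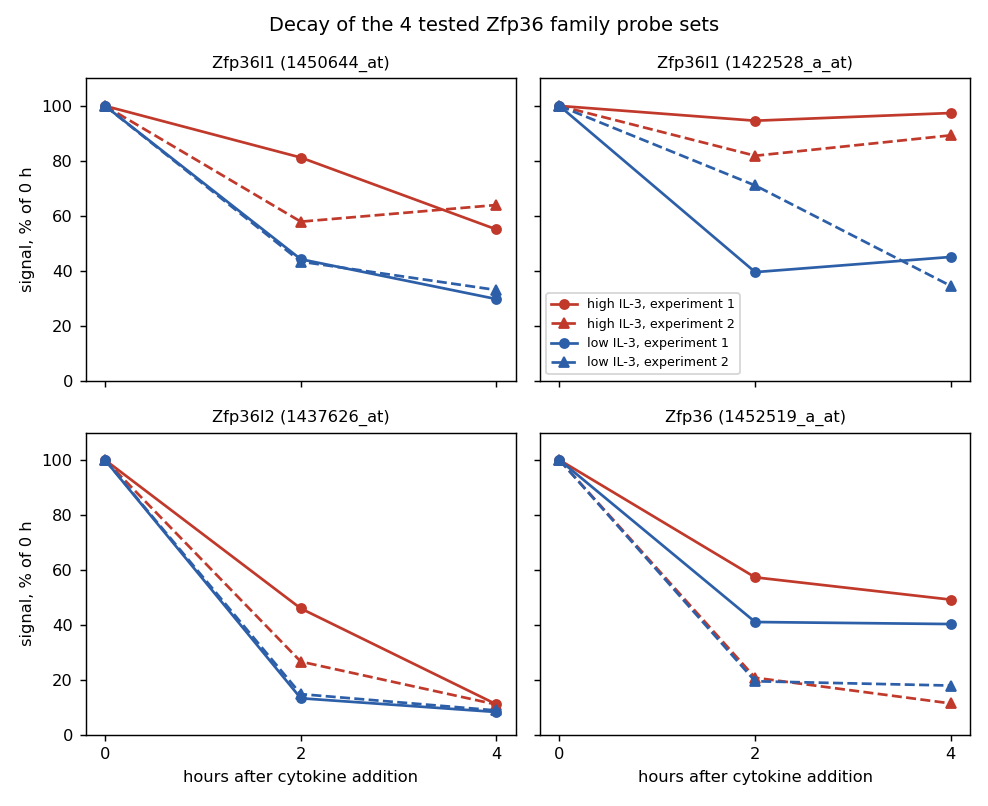
Remaining signal, as percent of 0 h within each experiment, on the vertical axis and time since the dose in hours on the horizontal axis, for the 4 tested probe sets, at the high dose (red) and the low dose (blue), with circles and solid lines for experiment 1 and triangles and dashed lines for experiment 2. The red lines of Zfp36l1 stay above the blue ones at both times, those of Zfp36l2 meet them closely at 4 h, and those of Zfp36 separate by experiment more than by dose.

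The dose difference was then taken at each time. For Zfp36l1 by 1450644_at, the log2 difference between the doses was 0.63 (SE 0.15, adjusted p = 0.24) at 2 h and 0.89 (SE 0.15, adjusted p = 0.029) at 4 h, both from limma. By 1422528_a_at it was 0.55 (SE 0.22, adjusted p = 0.66) at 2 h and 0.95 (SE 0.22, adjusted p = 0.089) at 4 h. Its 2 h value was 0.18 without the 2 h low-dose array from experiment 1 and 0.93 without that from experiment 2. Zfp36l2 had the reverse order, with 1.29 (SE 0.18, adjusted p = 0.0077) at 2 h and 0.35 (SE 0.18, adjusted p = 0.70) at 4 h. For Zfp36 the values were 0.22 (SE 0.27) and -0.09 (SE 0.27), and neither passed.

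At 2 h 0.059% of all tested probe sets were higher at the high dose at the threshold, and at 4 h 0.388% were. Zfp36l2 was 1 of the 7 called at 2 h, in place 3 by p, and 1450644_at was 1 of the 46 called at 4 h, in place 12. Single arrays moved these backgrounds. The 7 became 222 without the 2 h high-dose array from experiment 2, 18 without either 0 h array and 2 without either 4 h low-dose array. The 46 became 12 or 8 without the 4 h high-dose array from experiment 1 or 2, and 3 or 14 without the 4 h low-dose array from experiment 1 or 2. The change of the dose difference from 2 h to 4 h was tested directly. For Zfp36l2 it was -0.94 (SE 0.25), with an unadjusted p of 0.0018 and an adjusted p of 0.76 from limma, and 0 of 11856 probe sets passed this test in either direction, while 684 (5.77%) had an unadjusted p under 0.05. For Zfp36l1 it was 0.26 (SE 0.22) and 0.39 (SE 0.31) by 1450644_at and 1422528_a_at, and for Zfp36 -0.31 (SE 0.39). The narrowing for Zfp36l2 therefore failed the correction, although it occurred in both experiments.

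The 2 h call of Zfp36l2 was lost after scaling all arrays to 1 shared 75th percentile (adjusted p = 0.051), with quantile normalization (0.076), with no filter (0.12), without the variance trend (0.27), without the block (1) and without the 4 h low-dose array from experiment 1 (0.076) or 2 (0.077). Its alternatives ranged from 1.2e-05 to 1. The 4 h call of 1450644_at was lost with no filter (0.13), without the variance trend (0.26), without the block (1), and without the 4 h array of the high dose of experiment 1 (0.057) or 2 (0.34) or of the low dose of experiment 1 (0.53) or 2 (0.098). Its alternatives ranged from 0.0031 to 1.

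**Figure D3:**
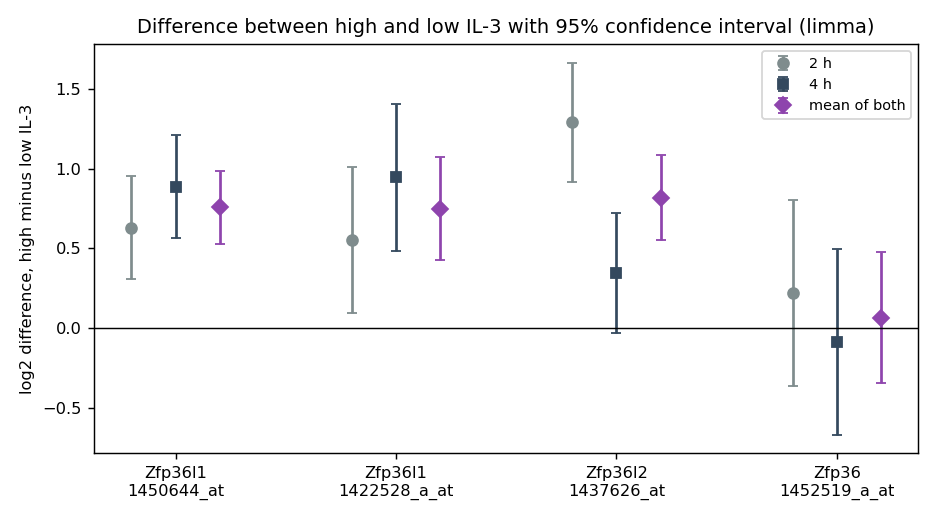
Log2 difference between the doses on the log2(intensity + 16) scale (vertical axis) for the 4 tested probe sets (horizontal axis) at 2 h (circles), at 4 h (squares) and as the mean of both (diamonds), with 95% confidence intervals from limma. Zfp36l2 has its highest value at 2 h (1.29), with a 2 h interval above 0 and a 4 h interval that includes 0, and all 3 intervals of Zfp36 include 0.

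The effect of IL-3 was also set side by side between members, array pair by array pair. The difference of Zfp36 was below that of Zfp36l1 by 1450644_at in 4 of 4 pairs, by a mean log2 of -0.69 ± 0.43 (SD, n = 4 pairs), and below that of Zfp36l2 in 4 of 4 pairs, by -0.75 ± 0.49. In an exact two-sided sign-flip permutation test both had p = 0.125, the smallest value that 4 pairs allow, and p = 0.19 when adjusted over the 3 comparisons. Zfp36l1 and Zfp36l2 differed by -0.06 ± 0.72 with 2 pairs on either side (exact permutation p = 1). That mean joins opposite values, since Zfp36l1 was below Zfp36l2 at 2 h by -0.90 and -0.42 in experiments 1 and 2 and above it at 4 h by 0.46 and 0.62. The test takes the 4 pairs as independent, although those of an experiment share a culture, and with 4 pairs it cannot reach the threshold.

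Each tested probe set fell between 0 h and 4 h, apart from 1422528_a_at at the high dose. Zfp36l2 fell the furthest of the tested family probe sets, with log2 changes of -3.47 (SE 0.18) from 0 h to 4 h at the low dose and -3.12 (SE 0.18) at the high dose, with adjusted p-values of 8.6e-10 and 1.7e-09 from limma. At the low dose it stood at place 33 of 11856 by p. Zfp36l1 by 1450644_at fell by 1.63 (SE 0.15, adjusted p = 2.0e-07) at the low and by 0.74 (SE 0.15, adjusted p = 8.5e-04) at the high dose. By 1422528_a_at it fell by 1.03 (SE 0.22, adjusted p = 8.3e-04) at the low dose, and its log2 change at the high dose was -0.08 (SE 0.22, adjusted p = 0.78). Zfp36 fell by 1.54 (SE 0.27, adjusted p = 1.8e-04) at the low and by 1.63 (SE 0.27, adjusted p = 1.3e-04) at the high dose. The filter kept Zfp36 only through its 0 h arrays, which favours a fall from 0 h, so these p-values are weaker support. With no filter on signal both falls passed as well (adjusted p = 0.0020 at the low and 0.0016 at the high dose, from limma). Without the 0 h array of experiment 2 these falls of Zfp36 were -0.98 and -1.06 on the log2 scale and still passed (adjusted p = 0.0073 and 0.0045 from limma).

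Falls of this kind were common on these arrays. From 0 h to 4 h, 38.3% of all tested probe sets fell at the threshold at the low dose and 35.4% at the high dose, so that a call alone does not set the family apart. The median log2 change of all tested probe sets was -0.12 at the low and -0.10 at the high dose. It became 0.30 and 0.31 after scaling all arrays to 1 shared 75th percentile, and 0.15 and 0.16 with quantile normalization. Relative to the median, the changes at the low dose were -3.35 for Zfp36l2, -1.50 and -0.91 for Zfp36l1 by 1450644_at and 1422528_a_at, and -1.42 for Zfp36. At the high dose they were -3.03, -0.64, 0.01 and -1.53 in the same order. The value of 1422528_a_at at the high dose changed sign with the scaling, and the 7 falls that passed did so under each alternative that tested them.

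Half-lives, estimated in each experiment by a line through the natural log of the remaining share, put the decay in hours. The line was held to the 0 h value. For Zfp36l1 by 1450644_at the half-life was 4.88 h ± 0.0951 at the high dose and 2.20 h ± 0.0943 at the low dose (SD, n = 2 experiments). Zfp36l2 had 1.27 h ± 0.0921 at the high and 1.01 h ± 0.0249 at the low dose. At the low dose this value joins unlike intervals, with 14.05% of the 0 h signal left at 2 h and 61.1% of the 2 h signal left at 4 h. The Zfp36 half-life was 3.51 h and 1.17 h at the high dose in experiments 1 and 2, and 2.56 h and 1.37 h at the low dose, so that the experiments lay further apart than the doses. By 1422528_a_at the half-life of Zfp36l1 was 2.78 h ± 0.0411 at the low dose. With the high dose its signal hardly fell, and the slopes gave 64.3 h and 16.3 h, which the 4 h of measurement cannot resolve. All half-lives rest on ratios to 0 h in the deposited scaling, and the SDs do not cover other scalings. From 0 h to 4 h, 1450644_at changed by -0.74 at the high and -1.63 at the low dose (log2). These became -0.31 and -1.19 with the 75th percentile scaling, and -0.37 and -1.23 with quantile normalization.

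The change was next split into the first and second interval. Zfp36l2 at the low dose lost most of its signal before 2 h, when 14.05% ± 1.07 of the 0 h signal was left, and at 4 h it still had 61.1% ± 1.80 of the 2 h signal. At the high dose it kept 36.3% ± 13.7 by 2 h and then 32.7% ± 12.2 of the 2 h signal by 4 h, with the experiments apart at 2 h (46.0% and 26.6%). The log2 changes of Zfp36l2 were -2.79 (SE 0.18) from 0 h to 2 h and -0.68 (SE 0.18) from 2 h to 4 h at the low dose, and -1.50 (SE 0.18) and -1.62 (SE 0.18) at the high dose. All 4 of these changes passed limma, with adjusted p-values of 3.4e-08, 0.012, 1.0e-05 and 2.3e-05. The background was 23% of probe sets lower from 0 h to 2 h and 18.9% lower from 2 h to 4 h at the low dose, and 22.6% and 18.7% at the high dose.

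A test of the second interval against the first was added after these values were seen. At the low dose the Zfp36l2 change was 2.11 higher on the log2 scale in the second interval than in the first (SE 0.31, adjusted p = 0.0011 from limma), as it was at the threshold for 2.94% of all tested probe sets. It passed in every tested alternative except that without the experiment as a block (adjusted p = 0.87, over a range of 2.0e-05 to 0.87). With the high dose the same difference was -0.12 (SE 0.31, adjusted p = 0.89), where 2.61% of probe sets were higher and 0.506% lower at the threshold. Without the 2 h high-dose array from experiment 1 it was 0.72, and without that of experiment 2 it was -0.96 and passed (adjusted p = 0.047). The direct comparison of the doses in the second interval is the change of the dose difference given above, which did not pass. For Zfp36l1 and Zfp36 no difference between intervals passed. The Zfp36 value at the low dose was 1.44 (SE 0.47, adjusted p = 0.16), and it passed without the 0 h array of experiment 1 (2.01, adjusted p = 0.0075; range 0.0075 to 1).

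Zfp36l1 by 1450644_at fell by 1.16 (SE 0.15, adjusted p = 2.6e-05) from 0 h to 2 h and by 0.46 (SE 0.15, adjusted p = 0.041) from 2 h to 4 h at the low dose. At the high dose it fell by 0.53 (SE 0.15, adjusted p = 0.016) in the first interval, and the change in the second was -0.20 (SE 0.15, adjusted p = 0.39). The experiments parted there, with 67.8% of the 2 h signal left at 4 h in experiment 1 and 110% in experiment 2. Zfp36 fell by 1.49 (SE 0.27, adjusted p = 6.0e-04) at the low and by 1.27 (SE 0.27, adjusted p = 0.0025) at the high dose before 2 h. These falls also start from the 0 h arrays that carried Zfp36 past the filter. From 2 h to 4 h its log2 change was -0.05 (SE 0.27, adjusted p = 0.92) at the low and -0.36 (SE 0.27, adjusted p = 0.40) at the high dose. By then its arrays at the low dose read between 30.9 and 48.4, under the intensity of 50 used as the filter.

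**Figure D4:**
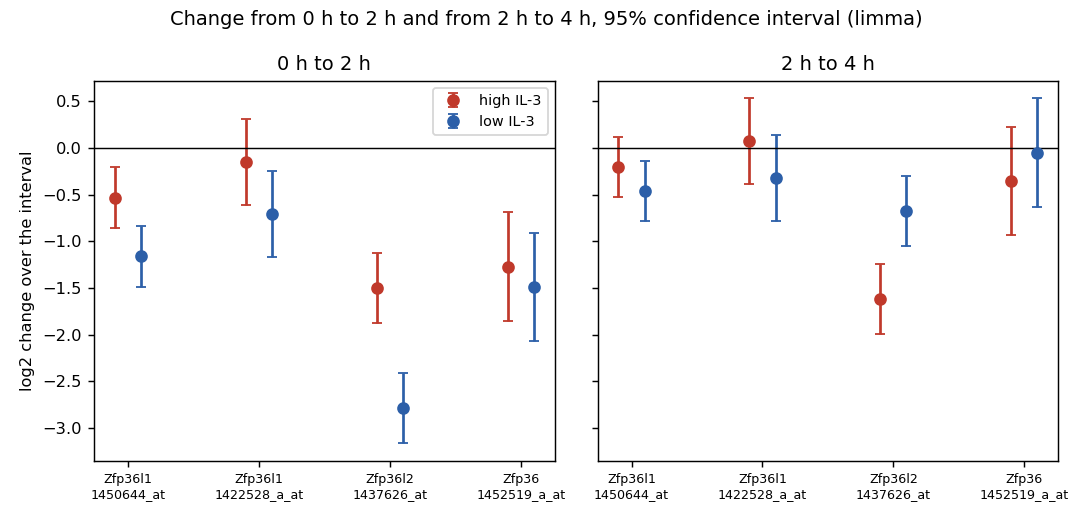
Log2 change on the log2(intensity + 16) scale (vertical axis) of the 4 tested probe sets (horizontal axis) from 0 h to 2 h (left) and from 2 h to 4 h (right) at the high dose (red) and the low dose (blue), with 95% confidence intervals from limma. Zfp36l2 at the low dose has the lowest value of the left panel (-2.79), and in the right panel its high-dose value (-1.62) lies below its low-dose value (-0.68).

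The study's own measure, the area between the decay curves of the high and the low dose divided by the variability of probe sets of like 0 h signal (g_score), was recomputed over all 22690 probe sets. Zfp36l1 by 1450644_at had a g_score of 3.11 and rank 12, and 1422528_a_at had 2.10 and rank 59. Zfp36l2 by 1437626_at had 2.29 and rank 39, and Zfp36 had 0.40 and rank 2049. The area was positive for 5290 probe sets in all. For each tested member it was larger in experiment 1 than in experiment 2, with 0.99 and 0.60 for 1450644_at, 1.63 and 0.76 for 1422528_a_at, 0.68 and 0.26 for 1437626_at, and 0.41 and -0.04 for Zfp36. From experiment 2 alone the ranks were 49, 356, 422 and 7059.

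The untested Zfp36l2 probe sets were too dim for a comparison of the doses. 1451034_at read 139 at 0 h in experiment 2 and between 3.45 and 27.6 on the other 9 arrays, among them 21.1 at 0 h in experiment 1. Its g_score of 0.84 (rank 754) rests on areas of 1.12 in experiment 1 and -0.12 in experiment 2. 1439054_at read between 3.83 and 24.7 on the 10 arrays, and its g_score was -2.49 (rank 21380). Each was higher at the high dose in 2 of 4 pairs. From 0 h to 4 h 1451034_at fell to 14.6% ± 2.44 at the high and 16.2% ± 7.52 at the low dose, a fall that starts from 1 array over 50. The dose difference of Zfp36l2 rests on 1437626_at alone.

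Other genes of the same pathway were taken as lists, with the brightest probe set of each gene. Of 6792 genes tested this way, 0.869% were higher and 0.0147% lower at the high dose at the threshold, and the median log2 difference was -0.01. Among the machinery that the family recruits, 0 of 13 deadenylase genes, 0 of 10 decapping genes and 0 of 10 exosome genes passed in either direction. At an unadjusted p under 0.05 there were 2 (15.4%), 0 and 0, against 584 (8.6%) of all 6792 genes. These 2 deadenylase genes went in opposite directions, with Cnot3 higher at the high dose and Cnot6l lower (-0.29, SE 0.10, unadjusted p = 0.011, adjusted p = 0.32 from limma). The median log2 differences of these lists were 0.02, 0.06 and 0.03. The lowest p in each belonged to Cnot3, a CCR4-NOT subunit, with 0.33 (SE 0.10, unadjusted p = 0.0067, adjusted p = 0.25), to Edc4, a decapping scaffold, with 0.19 (SE 0.11, unadjusted p = 0.12, adjusted p = 0.73), and to Exosc10, an exosome nuclease, with 0.15 (SE 0.10, unadjusted p = 0.16, adjusted p = 0.77), all from limma.

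Of 17 other genes for ARE-binding and related proteins, 0 passed and 2 (11.8%) had an unadjusted p under 0.05, against the 8.6% of all genes, with a median of 0.00 and a range of -0.13 to 0.16. Pcbp1, a poly(C)-binding protein, had the lowest p there, at 0.16 (SE 0.05, adjusted p = 0.27 from limma). The other of the 2 was Hnrnpdl, which was lower at the high dose, at -0.13 (SE 0.06, adjusted p = 0.53 from limma). Of 16 kinase, phosphatase and 14-3-3 genes of the family's pathway, 0 passed, with a median of -0.01. Of these, 1 (6.25%) had an unadjusted p under 0.05, against the same 8.6%. The lowest p was that of Ywhag, a 14-3-3 protein, at 0.20 (SE 0.05, adjusted p = 0.093 from limma). Decay itself was seen in these lists as elsewhere. From 0 h to 4 h at the low dose, 8 of 13 deadenylase genes, 3 of 10 decapping genes, 6 of 10 exosome genes, 10 of 17 ARE-binding genes and 7 of 16 kinase, phosphatase and 14-3-3 genes fell, against 43.6% of all genes tested. With the high dose the counts were 9, 4, 5, 7 and 6, against 40.6%.

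Transcripts known as targets of the family formed the last list. Of 16 tested, 2 were higher at the high dose, 0 were lower and 14 did not pass. The median was 0.10, 12 of the 16 lay above 0, against 3271 of all 6792 genes, and 4 (25%) had an unadjusted p under 0.05, against 8.6%. The 2 that passed were the cytokine Il6 and the CDK inhibitor Cdkn1a. Another of the 4 was Pim1, at 0.48 (SE 0.11, adjusted p = 0.074 from limma). The last of them was Cxcl2, at 0.61 (SE 0.20, adjusted p = 0.27 from limma). It was dim, with a mean intensity of 85.45, and at 4 h at the high dose it read 197% ± 126 of its 0 h signal. The study had already taken up Il6, Cdkn1a and Pim1 from its ranking and its Northern blots. Neither the calls nor the shares of this list are therefore independent of that choice. Il6 kept 48.9% ± 6.24 of its 0 h signal at the high and 17.5% ± 2.82 at the low dose at 4 h (SD, n = 2 experiments), and differed between the doses by 1.45 (SE 0.10; limma, adjusted p = 1.4e-06). Cdkn1a kept 40.8% ± 10.7 and 21.6% ± 1.99, and its difference was 0.77 (SE 0.10) with an adjusted p of 8.8e-04 from limma. At the low dose, 11 of the 16 (68.8%) fell from 0 h to 4 h and 1 rose, where 43.6% of all genes fell and 13.7% rose. At the high dose 12 (75%) fell and 2 rose, where 40.6% of all genes fell and 9.11% rose. The study takes values above 0 h under the transcription block as measurement noise. The 2 calls between the doses became 1 without the variance trend and 0 without the experiment as a block.

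**Figure D5:**
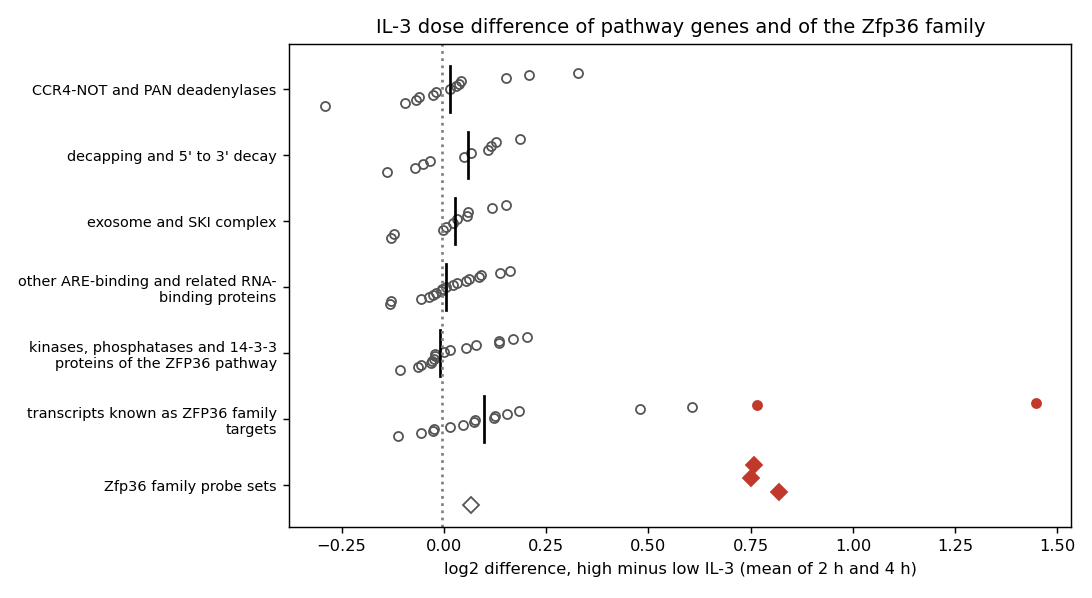
Log2 difference between the doses, mean of 2 h and 4 h on the log2(intensity + 16) scale (horizontal axis), for the genes of 6 pathway lists and the 4 tested Zfp36 family probe sets (vertical axis), with filled red symbols for an adjusted p under 0.05 and open symbols otherwise. Black bars are list medians and the dotted line is the median of all genes (-0.01); 3 family probe sets and 2 target genes, Il6 and Cdkn1a, are filled.

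The genes with the most similar course were found by the root mean square distance of their log2 changes from 0 h over the 8 later arrays, among all tested probe sets of other genes. For Zfp36l1 by 1450644_at they were Tgds (distance 0.18, Pearson r = 0.94 over the 8 arrays), Tmem199 (0.21, r = 0.88) and Fxr1 by 1 of its 2 tested probe sets (0.24, r = 0.91). The other Fxr1 probe set, the one used in the pathway lists, did not follow, with a distance of 0.80 and 66.0% ± 0.415 and 68.7% ± 2.75 left at 4 h at the high and the low dose. For the other 8 genes named here the match was their brightest tested probe set. Tgds kept 53.6% ± 1.99 at the high and 29.3% ± 2.43 at the low dose at 4 h, and Tmem199 54.0% ± 7.63 and 32.5% ± 1.41. For Zfp36l2 the nearest were B3gnt2 (0.34, r = 0.90), Nfe2l2, which encodes the stress-response transcription factor NRF2 (0.38, r = 0.89), and Slfn2 (0.42, r = 0.85). B3gnt2 kept 9.77% ± 0.820 at the high and 8.30% ± 0.0236 at the low dose at 4 h. For Zfp36 they were Socs5, a suppressor of cytokine signalling (0.30, r = 0.94), Hexim1 (0.32, r = 0.87) and Elf2 (0.35, r = 0.86). These genes were picked as the nearest among all tested probe sets, so their distances cannot be compared with those between the members. Zfp36l1 and Zfp36l2 were 1.78 apart (r = 0.76), Zfp36 and Zfp36l2 1.49 (r = 0.29), and Zfp36 and Zfp36l1 0.84 (r = 0.12). All these values are descriptions, since the arrays of an experiment share 1 culture and 1 reference array at 0 h.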

How the data were processed

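The authors normalized all 10 arrays in dChip with default settings and deposited a linear-scale intensity for each probe set (dChip version: not given in the sources used here). Array medians lay between 48.8 and 70.6. With 2 arrays a group, precision is limited by their number. The platform annotation named a single gene for 20393 of 22690 probe sets, several for 691 and none for 1606. Symbols were brought up to date by gene ID for 20364 of them, from RefSeq's GRCm38.p6 gene table.

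Groups followed the sample titles. On log2(intensity + 16), 1 fit with limma 3.58.1 (R 4.3.3) took in all 5 groups and had the experiment as a block, eBayes with a trend on signal, and probe sets with a mean of at least 50. The block follows the divided culture, and arrays of the same experiment deviated together (correlations of 0.762 to 0.887). The g_score followed the study's supplemental methods, with a window of 500 places and the 6 largest differences left out as outliers; the formula of its variability was taken as the absolute difference between experiments. Genes named are the members, up to 3 genes per list that passed in each direction or otherwise the gene with the smallest p, and the 3 most similar genes per member. Pim1 was named because the study had taken it up. Cnot6l, Hnrnpdl and Cxcl2 were named as the remaining genes of their lists with an unadjusted p under 0.05. The members and lists were chosen with earlier results of these data known. Python 3.11.15, numpy 2.4.6, pandas 2.3.3 and matplotlib 3.10.9 were also used, and the fit was tested on simulated data. The alternatives were pseudocounts of 1 and 64, no filter or one at 200, quantile normalization, scaling to Gapdh or to the 75th percentile, a fit without the block or without the variance trend, and each array or experiment left out.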

Additional observations from a re-analysis of the deposited data

How the results depend on the processing

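With 2 arrays per group, all calls between the doses depended on how the spread was modelled, while the falls from 0 h to 4 h that passed did so in each alternative tested. Of 518 alternative values of the members with a test, 472 kept their direction and side of the threshold, 33 lost a call, 5 gained one and 8 turned in sign. Of 56 values from 1 experiment, which have no test, 5 turned in sign, all of differences that had not passed. With no filter on signal, calls were lost for the dose difference over both times of Zfp36l1 by 1422528_a_at (0.75, adjusted p = 0.17) and of Zfp36l2 (0.82, 0.052), for Zfp36l2 at 2 h (1.29, 0.12) and for 1450644_at at 4 h (0.89, 0.13). The 75th percentile scaling ended those of 1422528_a_at (0.75, 0.079) and of Zfp36l2 at 2 h (1.27, 0.051), as did quantile normalization (0.79, 0.065, and 1.29, 0.076). At the high dose the change of 1422528_a_at from 0 h to 4 h turned to 0.27 and 0.26 under these scalings. With no replicate block, so that the pairing by experiment was ignored, the values were 0.76 for 1450644_at, 0.75 for 1422528_a_at, 0.82 for Zfp36l2, 1.29 at 2 h for Zfp36l2 and 0.89 at 4 h for 1450644_at, each with an adjusted p of 1, and 2.11 for the Zfp36l2 interval difference at the low dose (0.87). Without the variance trend the first 5 of these values were the same and their adjusted p-values 0.079, 0.11, 0.11, 0.27 and 0.26. The cause of these changes was not tested.

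With an array or experiment left out, the dose difference over both times ran from 0.62 to 0.90 for 1450644_at, 0.56 to 0.94 for 1422528_a_at, 0.56 to 1.08 for Zfp36l2 and -0.17 to 0.30 for Zfp36. At 2 h it ran from 0.35 to 0.91 for 1450644_at, which passed without the 2 h high-dose array from experiment 2 (adjusted p = 0.0058), from 0.17 to 0.94 for 1422528_a_at, 0.82 to 1.76 for Zfp36l2 and 0.05 to 0.39 for Zfp36. At 4 h it ran from 0.74 to 1.04 for 1450644_at, 0.76 to 1.14 for 1422528_a_at, 0.22 to 0.48 for Zfp36l2 and -0.49 to 0.31 for Zfp36. 1422528_a_at passed there without the 2 h low-dose array from experiment 1 (0.037) or 2 (0.038). The fall of Zfp36 from 0 h to 4 h ran from -2.11 to -0.98 at the low and -2.40 to -0.86 at the high dose. The interval difference ran from 0.87 to 2.01 for Zfp36 and -0.36 to 1.13 for 1422528_a_at at the low dose, and from -0.96 to 0.72 for Zfp36l2 and -0.25 to 0.91 for 1450644_at at the high dose. With no limit on ratios above 1 the g_score ranks were 76 for 1450644_at, 258 for 1422528_a_at, 191 for Zfp36l2 and 5087 for Zfp36, and with 1 experiment they ran from 9 to 49, 28 to 356, 17 to 422 and 1053 to 7059. Of all probe sets, 82 were higher at the high dose over both times, and this count was 22 with no filter, 54 with the filter at 200, 12 without the variance trend, 0 without the block, and from 19 to 152 with an array left out. At 2 h alone 7 were higher, with a range of 2 to 222, and at 4 h 46, with a range of 3 to 61, when an array was left out. A fit with 1 experiment has no residual degrees of freedom and gave values with no test.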
